A study of Mus musculus with 2 samples.

Results

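The Ms4a4 and Ms4a6 genes Ms4a4b, Ms4a4c, Ms4a4d, Ms4a6b, Ms4a6c and Ms4a6d were compared between 1 microarray of Tc1 cells and 1 microarray of Tc9 cells. They were taken by gene symbol from the platform annotation, which names 1 probe set for each, 6 of the 19505 genes measured. The set was chosen with earlier results of these same arrays known, so its differences are a description. Each group is 1 array, so no difference below could be checked against replicates or tested, and the number of arrays limits the precision.

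Both cultures started from mouse CD8+ T cells of spleen and lymph node, primed with antibodies against CD3 and CD28. Tc1 cells, named for interferon gamma production, were polarized for 3 days in T cell medium with 10 ng/mL recombinant human IL-2. Tc9 cells, named for interleukin 9 production, were polarized for 3 days with 10 ng/mL IL-4, 1 ng/mL TGF-β and 20 µg/mL of the antibody XMG1.2, which blocks interferon gamma. A further 2 days followed for both in IL-2 at 10 ng/mL, and RNA was taken at day 5. The labels name no mouse strain, sex or age. The second sample is called Tc9 by its title and description but Tc1 by its source name, and was used as Tc9. All 7 measured CD8 T cell markers were above the detection threshold on both arrays, among them Cd8a with a Tc1 log2 signal of 12.19 and a Tc9 log2 signal of 11.93. Lck was not analysed here.

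Ms4a genes encode small proteins that cross the membrane several times, with both ends inside the cell, and many act as partners of other receptors. The founding members are Ms4a1, the B cell antigen CD20, and Ms4a2, the beta chain of the high-affinity IgE receptor of mast cells and basophils. In the mouse, Ms4a4b is a T cell gene, also called Chandra and known from Th1 cells, whose protein associates with the costimulatory receptor GITR. Ms4a6c and Ms4a6d are known from monocytes and macrophages.

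All 6 genes had lower signals on the Tc9 array than on the Tc1 array, as did 49.5% of all genes measured. The detection threshold was a log2 signal of 6.43, the median over all genes on both arrays, and a gene that reached it on either array is called detectable. Of the members, 5 were detectable, all of them by their Tc1 signal, and 3 of them, Ms4a4b, Ms4a4c and Ms4a6b, were above the threshold on both arrays. By measured values each of these 5 was at least 2-fold lower, and none was higher. The count was 4 after quantile normalization or median centring, and 3 with a pseudocount of 16, a threshold from negative controls or dim values at the threshold, where Ms4a4b, Ms4a4c and Ms4a6b remained. Over the whole array, 2.79% of 10147 detectable genes were at least 2-fold lower and 2.62% at least 2-fold higher. Of the 9358 genes above the threshold on both arrays, 1.88% were at least 2-fold lower, as were the 3 members among them. Since the members were picked on this contrast, nothing is read from that comparison. The median log2 difference, Tc9 minus Tc1, was -1.56 over the 6 members and 0.00453 over all genes. The RNA came from whole cultures, so fewer cells of a type and less RNA per cell cannot be told apart.

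**Figure D1:**
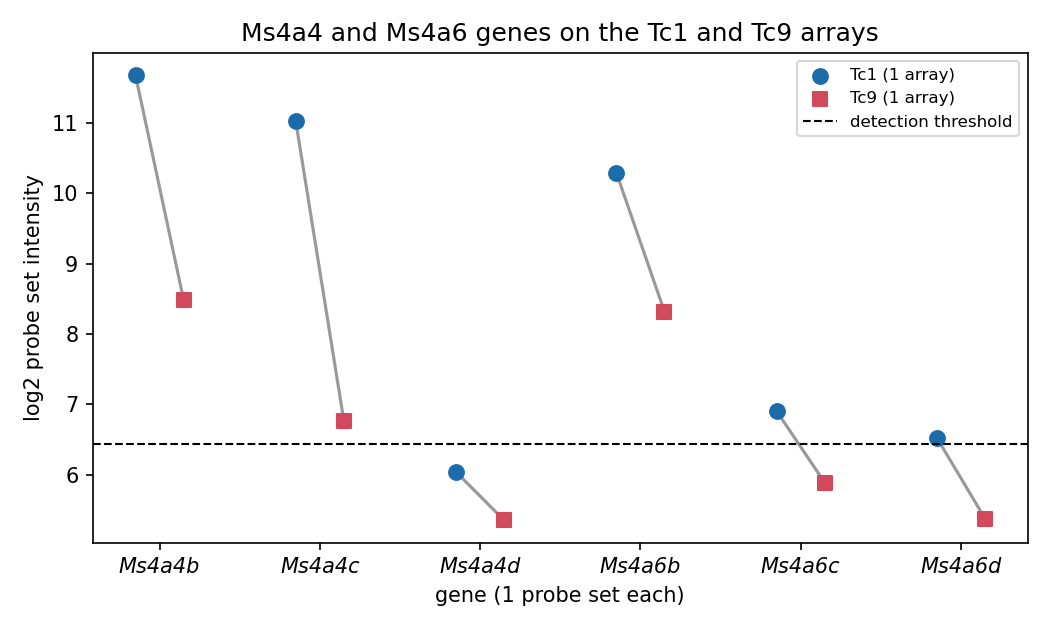
Log2 probe set intensity (vertical axis) of each Ms4a4 and Ms4a6 gene (horizontal axis) on the Tc1 array (circles) and the Tc9 array (squares), 1 array each, with the detection threshold of 6.43 as a dashed line. Every square lies below its circle. Ms4a4d is below the threshold on both arrays, and Ms4a6c and Ms4a6d cross it between the arrays.

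Ms4a4c had the largest difference of the family. Its deposited intensity was 2085 for Tc1 and 109 for Tc9, log2 signals of 11.03 and 6.76. The log2 difference was -4.26, a signal 19.2-fold lower in Tc9 cells, with 5.21% of the Tc1 signal left. Among 9358 genes above the threshold on both arrays, 2 had a lower difference. The Tc9 signal lay only 0.33 log2 units above the threshold. It was under 7.02, the 95th percentile on that array of the negative controls, the control probe sets whose ID carries neg, and against that level the signal was at least 16.1-fold lower in Tc9 cells.

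Ms4a4b followed, with intensities of 3287 for Tc1 and 359 for Tc9. Its log2 signals were 11.68 and 8.49, a difference of -3.19, or 9.16-fold lower in Tc9 cells. Unlike Ms4a4c, it stayed well above the threshold in Tc9 cells, by 2.06 log2 units. It held place 9 from the lowest among the 9358 genes. Tnfrsf18, which encodes GITR, differed far less, with log2 signals of 12.55 and 12.40 and a difference of -0.15.

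Ms4a4b and Ms4a4c lie next to each other, and RefSeq's promoter windows show how alike their start regions are. Each window runs from 250 bases before to 50 bases after an annotated start on the plus strand of GRCm38.p6, at chr19:11407411-11407710 and chr19:11443308-11443607. They are shown because these are the genes with the largest differences. Capitals mark stretches of at least 12 bases that both windows share without a mismatch.
Ms4a4c: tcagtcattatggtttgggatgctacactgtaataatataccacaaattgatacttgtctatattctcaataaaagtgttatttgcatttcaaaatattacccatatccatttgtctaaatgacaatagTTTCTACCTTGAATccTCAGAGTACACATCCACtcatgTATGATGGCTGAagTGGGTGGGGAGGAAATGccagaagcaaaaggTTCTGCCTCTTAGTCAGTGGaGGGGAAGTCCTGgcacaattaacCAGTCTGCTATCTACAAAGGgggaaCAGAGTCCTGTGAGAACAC
Ms4a4b: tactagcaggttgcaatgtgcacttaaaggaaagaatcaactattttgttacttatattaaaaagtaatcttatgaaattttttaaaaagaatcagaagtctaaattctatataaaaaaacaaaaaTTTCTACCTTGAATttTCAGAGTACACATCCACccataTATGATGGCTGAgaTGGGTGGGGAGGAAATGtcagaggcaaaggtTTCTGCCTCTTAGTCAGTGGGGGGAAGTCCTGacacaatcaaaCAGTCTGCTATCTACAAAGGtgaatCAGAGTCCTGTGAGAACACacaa

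The shared stretches cover 131 of the 300 bases in each window. The longest are 20 bases, one starting 38 bases before the start in Ms4a4c and 41 before it in Ms4a4b, the other just after the start. In a global alignment, 72.1% of the columns were identical. The likeness sits near the start, with 88.0% identity from 121 bases before the Ms4a4c start onward and 52.8% further upstream, a split made after seeing the alignment. Over the 143 pairs of Ms4a promoter windows that are not pairs of members, identity ran up to 50.3%, and the longest shared stretch was 12 bases.

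Ms4a4d, the third Ms4a4 gene measured, stayed below the threshold on both arrays. Its intensities were 65.7 for Tc1 and 40.8 for Tc9, log2 signals of 6.04 and 5.35. The difference of -0.69 has no fold, because neither signal reached the threshold. Its promoter window was unlike those of the other 2 measured Ms4a4 genes, with identities of 46.5% to the Ms4a4c window and 46.4% to the Ms4a4b window. These windows are fixed on annotated starts, so shared sequence outside them is not seen. With the Ms4a6b window it shared a stretch of 13 bases. Ms4a4a was not analysed here.

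Among the Ms4a6 genes, Ms4a6b had the clearest signal. Its intensity was 1257 for Tc1 and 319.5 for Tc9, log2 signals of 10.30 and 8.32. The difference was -1.98, or 3.93-fold lower in Tc9 cells, place 43 from the lowest among the 9358 genes. Its Tc9 signal was 1.89 log2 units above the threshold.

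Ms4a6c and Ms4a6d lay near the threshold, so their folds are small lower bounds. Ms4a6c had intensities of 120 for Tc1 and 59.1 for Tc9, log2 signals of 6.90 and 5.89. Its measured difference was -1.02, and with the Tc9 value at the threshold it was at least 1.39-fold lower in Tc9 cells. Ms4a6d had intensities of 91.9 and 41.5, log2 signals of 6.52 and 5.38. Its measured difference was -1.15, and its bound was at least 1.07-fold lower. On both arrays their signals were below the 95th percentile of the negative controls, 7.30 for Tc1 and 7.02 for Tc9. Controls of that kind in the same range, within 1 log2 unit above the threshold on their brighter array, had Tc9 signals at least 2-fold lower in 11.1% of 324 cases and at least 2-fold higher in 4.63%. Of 1902 genes in that range, 3.05% were at least 2-fold lower. The part of this scatter in the Ms4a6c and Ms4a6d differences was not tested.

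The Ms4a6b and Ms4a6c windows, at chr19:11518309-11518608 and chr19:11469118-11469417 on the plus strand of GRCm38.p6, also share long stretches. They are shown because this second pair of paralogues differed in measured signal by unequal amounts, and capitals again mark shared stretches of at least 12 bases.
Ms4a6c: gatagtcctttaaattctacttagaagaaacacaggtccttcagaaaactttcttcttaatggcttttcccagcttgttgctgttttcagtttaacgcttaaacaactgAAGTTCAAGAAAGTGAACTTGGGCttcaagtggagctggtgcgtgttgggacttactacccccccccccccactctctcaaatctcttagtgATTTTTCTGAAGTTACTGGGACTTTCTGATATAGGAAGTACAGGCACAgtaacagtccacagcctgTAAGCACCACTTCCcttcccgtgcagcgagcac
Ms4a6b: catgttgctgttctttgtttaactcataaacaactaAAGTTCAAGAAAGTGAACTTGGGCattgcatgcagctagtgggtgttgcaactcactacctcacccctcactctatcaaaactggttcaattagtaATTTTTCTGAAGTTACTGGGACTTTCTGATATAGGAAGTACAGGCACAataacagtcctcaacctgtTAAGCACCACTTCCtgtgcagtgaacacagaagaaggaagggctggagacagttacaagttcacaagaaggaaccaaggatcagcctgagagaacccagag

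The longest stretch is 48 bases. It starts 49 bases before the annotated start in Ms4a6c and 118 bases before it in Ms4a6b, so the annotated starts are shifted against the shared sequence. Shared stretches cover 86 of the 300 bases in each window, and the global alignment gave 51.2% identity. The 5 windows of members hold 10 pairs in all, with a median identity of 46.7%. No promoter entry was used for Ms4a6d.

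The 5 member windows were searched on both strands for short motifs of transcription factors of interferon, IL-4 and T cell activation signalling. The STAT-type motif TTCNNNGAA, the core of the interferon-stimulated response element (ISRE) and the T-box motif TCACACCT had no match in them, against 8.30%, 3.44% and 1.28% of all 32851 promoter windows. This says only that these letters are not in these 300 bases. The wider STAT6-type motif, which has 1 more base between its arms, was found in 6.95% of all windows and matched Ms4a6b alone, 8 bases after the start. The ETS motif AGGAAGTG, in 4.07% of all windows, matched Ms4a6b alone, in a stretch beginning 44 bases before the start. The AP-1 motif TGANTCA, in 7.81% of all windows, matched Ms4a4b alone among the members, as TGAATCA 22 bases after the start. Of 14 other Ms4a windows, 4 held the AP-1 motif. The STAT-type, ISRE core and STAT6-type motifs were in 1 of them each, and the T-box and ETS motifs in 0. These matches are descriptions of letters, not of bound sites. The AP-1 match of Ms4a4b begins in the gap between 2 stretches that the Ms4a4b and Ms4a4c windows share.

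The members are near neighbours on chromosome 19 and were picked on this contrast, so nothing is read from their lower signals lying together. In the RefSeq order the measured members run Ms4a4c, Ms4a4b, Ms4a6c, Ms4a6b, Ms4a4d and Ms4a6d, with the predicted gene Gm8369 between Ms4a6c and Ms4a6b. Gm8369, named here after its value was seen, had log2 signals of 8.93 for Tc1 and 7.16 for Tc9, a difference of -1.77. Of 7 genes from Ms4a4c to Ms4a6d, 6 were detectable. Probes may be shared between near-identical genes of this stretch, which the files used here cannot settle.

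The rest of the Ms4a family had little signal. Of its 12 other measured genes, Ms4a1 alone was detectable, at log2 signals of 7.53 and 7.10, a difference of -0.43 or 1.35-fold lower in Tc9 cells. The other 11 were below the threshold on both arrays. Among these were Ms4a7, a macrophage gene, at 3.98 and 4.30, Ms4a2 at 3.35 and 3.43, and Ms4a3, a gene of myeloid progenitors, at 4.18 and 5.26. The measured difference of Ms4a3 was 1.08. The remaining Ms4a5, Ms4a8a, Ms4a10, Ms4a13, Ms4a15, Ms4a18, Ms4a19 and Ms4a20 had log2 differences between -0.41 and 0.36. The median difference of the 12 was 0.14, with 5 below and 7 above 0. Across the nearest 8 measured genes on each side of the family, the detectable ones were Slc15a3, Tmem109, Prpf19, Ccdc86 and Mrpl16, with differences between -0.33 and 0.17, and Cd6, a T cell surface receptor, at -1.64.

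**Figure D2:**
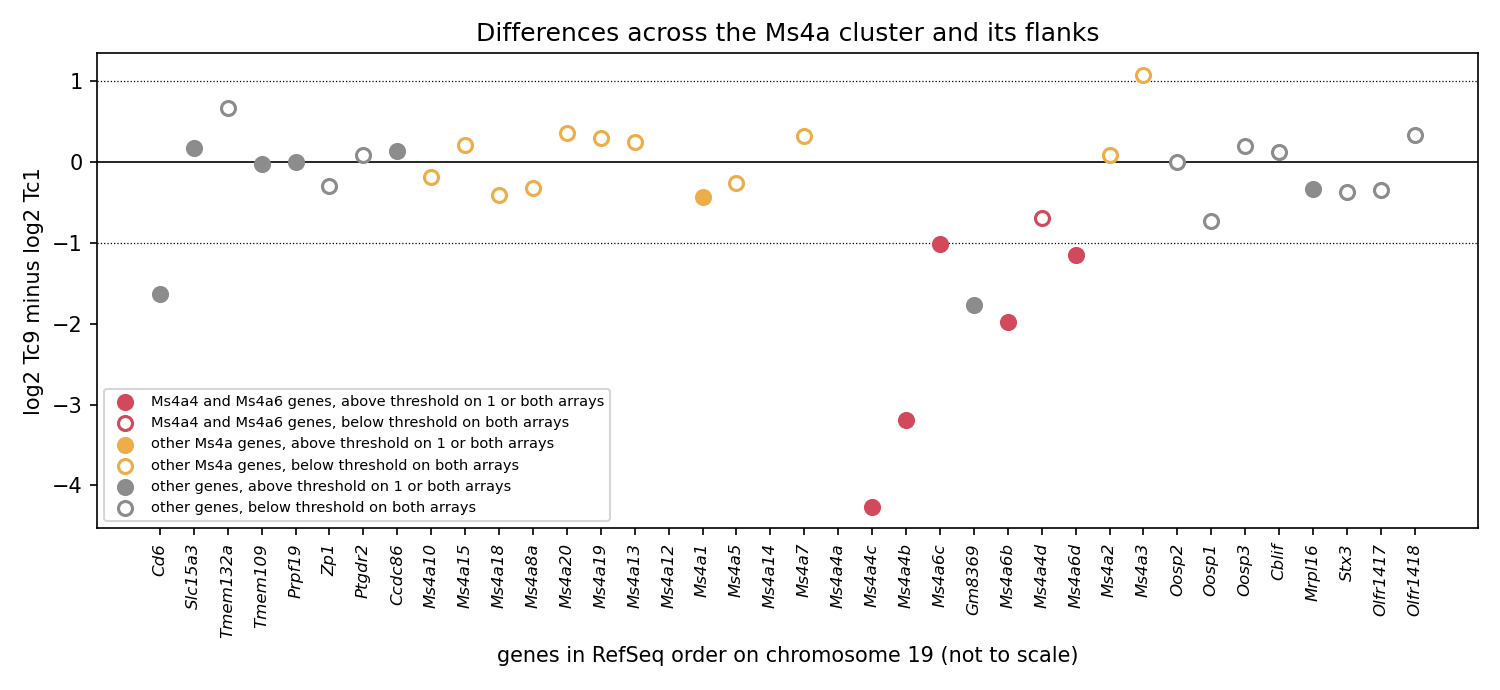
Log2 difference, Tc9 minus Tc1 (vertical axis), of the measured genes of the Ms4a family and 8 measured genes on each side, in RefSeq gene order (horizontal axis, not to scale). Filled points are detectable genes and open points are below the threshold on both arrays; Ms4a12, Ms4a14 and Ms4a4a carry no point. The low values run from Ms4a4c, at -4.26, to Ms4a6d, at -1.15, and include Gm8369 at -1.77. Outside this stretch, Cd6 is at -1.64.

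**Figure D3:**
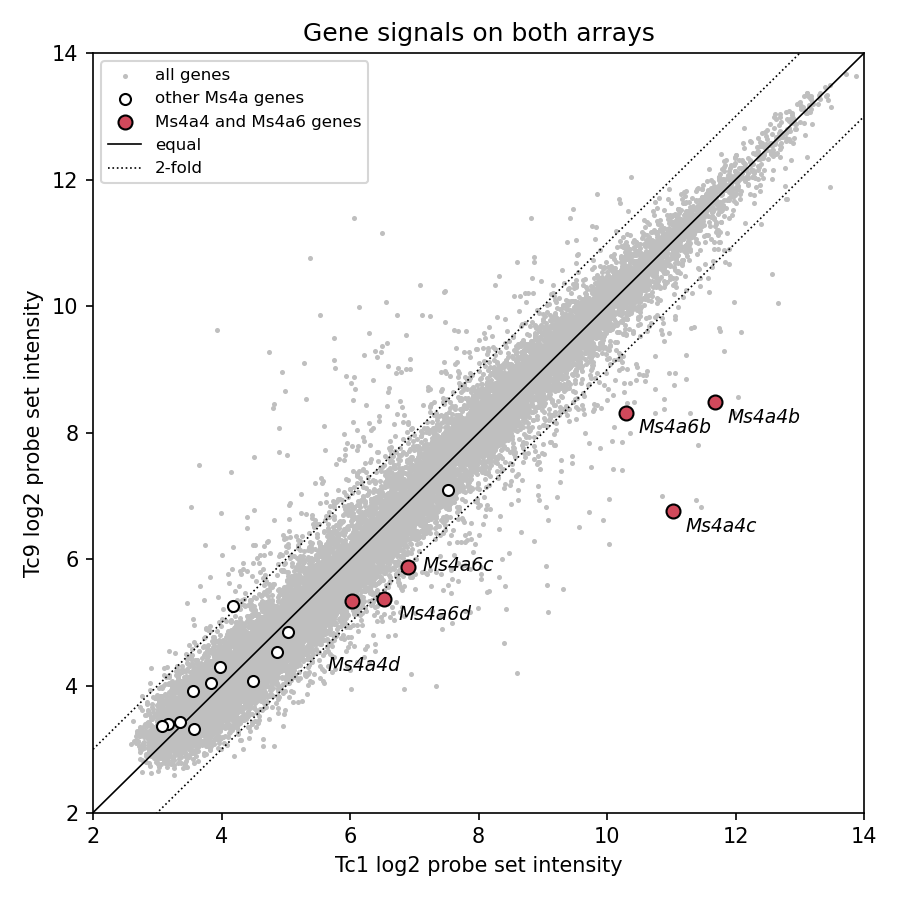
Log2 signal of every gene on the Tc1 array (horizontal axis) and the Tc9 array (vertical axis), with equality as a solid line and 2-fold differences as dotted lines. Ms4a4c, Ms4a4b and Ms4a6b stand far below the lower dotted line, while Ms4a6c, Ms4a6d and Ms4a4d lie near the threshold of 6.43. The open Ms4a points lie around equality, mostly at low signal, except Ms4a3, which is past the upper dotted line at low signal.

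Genes with the most similar differences were taken among 9094 genes above the threshold on both arrays, by the gap between the log2 differences over the 2 arrays. For Ms4a4c these were Serpinb9, a granzyme B inhibitor, at -4.44, Selp, which encodes P-selectin, at -4.64, Ly6c2 at -3.86, Gbp2, a guanylate-binding protein, at -3.67, and Ly6c1 at -3.61. For Ms4a4b they were Iigp1, an immunity-related GTPase, at -3.30, Plaur, the urokinase receptor, at -3.08, Tbx21, the T-bet transcription factor, at -3.05, Gbp7 at -2.98 and Ccl5, a chemokine, at -2.97. None of the 9094 genes lay within 0.1 of either difference.

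For Ms4a6b the nearest were Irf1, an interferon regulatory factor, Crip2, Prrg4, Plek, which encodes pleckstrin, and Cybb, an NADPH oxidase subunit, all between -2.02 and -1.93. For Ms4a6c and Ms4a6d the measured differences are uncertain, since their Tc9 signals lie below the threshold, and the order of the nearest genes has no meaning. For Ms4a6c they were Osgin2, Smim5, Osm, which encodes the cytokine oncostatin M, Trim12a and Irf9, all between -1.02 and -1.01. For Ms4a6d they were Rasgrp3, Ston2, Nfkbiz, Thbs4 and Them6, between -1.16 and -1.14. Within 0.1 of the difference lay 13 genes for Ms4a6b, 67 for Ms4a6c and 38 for Ms4a6d, so a likeness over 2 arrays separates few genes, least of all for Ms4a6c.

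The cultures differed in IL-4, TGF-β and the antibody that blocks interferon gamma. IL-2 during polarization is named above for Tc1 cells alone. With 1 array per group these conditions cannot be told apart. Their part in the Ms4a4 and Ms4a6 differences was not tested. Interferon and type 1 genes are given beside the family, from lists written with earlier results of these arrays known. Of 16 measured interferon gamma targets, all detectable, Tc9 signals were at least 2-fold lower for 13, and for none as much higher, with a median difference of -2.14. Cxcl9, a chemokine, was at least 3.91-fold lower, Gbp2 12.7-fold, Iigp1 9.88-fold and Gbp7 7.87-fold. Socs1, a feedback inhibitor of cytokine signalling, had a difference of 0.68. Of 15 detectable type I interferon targets, 13 were at least 2-fold lower and none as much higher, and the median over all 20 measured was -1.68. Only 7 of the 15 were above the threshold on both arrays, and the rest were detectable by their Tc1 signal alone. Ifit2 at -0.45 and Ddx58 at -0.41, above it on both, stayed within 2-fold. Oas3, an oligoadenylate synthetase, was at least 3.96-fold lower, Oasl2 at least 2.95-fold, Mx2 at least 2.71-fold and Ifit1 at least 1.33-fold.

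Of 17 detectable genes of the type 1 program, 12 were at least 2-fold lower, and Id2, a transcriptional regulator, was the 1 gene past 2-fold in the other direction. The median was -1.18 over 20 measured genes. Tbx21 was 8.30-fold lower, Ccl5 7.85-fold, Il12rb2, a chain of the IL-12 receptor, 6.10-fold and Klrk1, the receptor NKG2D, at least 3.26-fold. Ifng, the signature cytokine of Tc1 cells, had log2 signals of 9.28 and 7.57. The same background shares of 2.79% lower and 2.62% higher apply to these counts. Since the lists were written with earlier results known, nothing is read from that comparison. The differences of Ms4a4c and Ms4a4b were lower than the median of each of these 3 lists, and that of Ms4a6b lay between the medians of the interferon gamma and the type I lists.

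**Figure D4:**
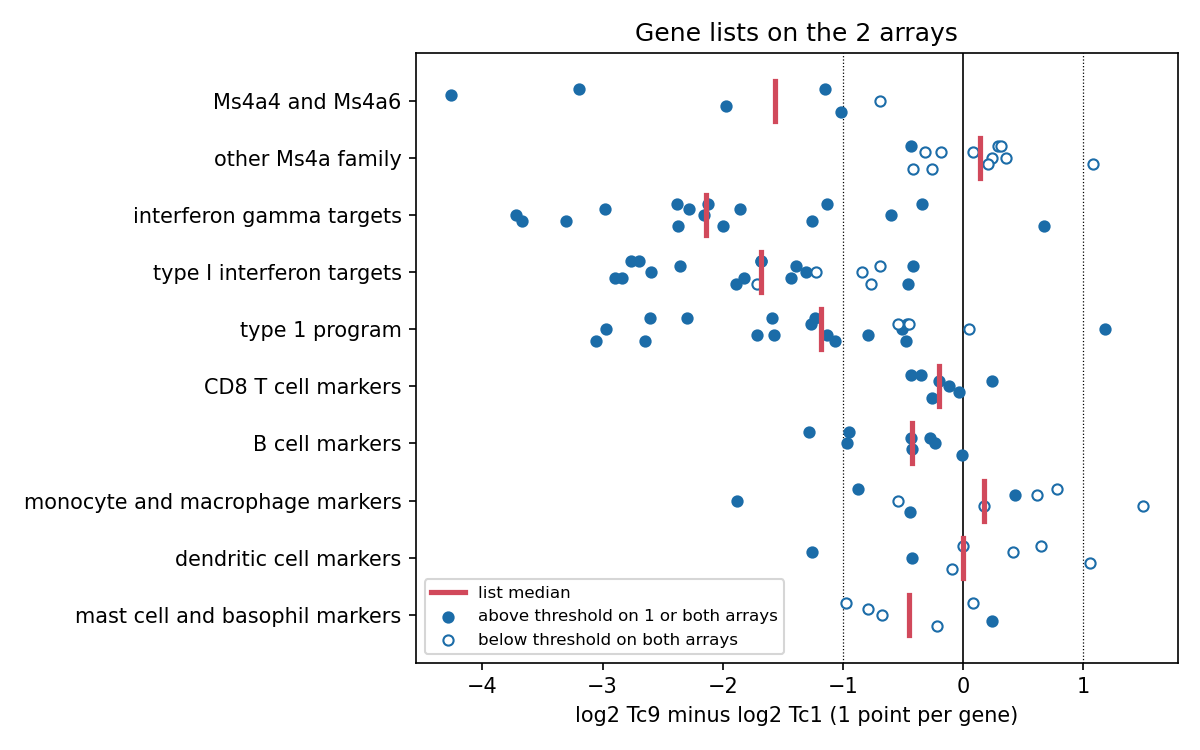
Log2 difference, Tc9 minus Tc1 (horizontal axis), of each measured gene of each list (vertical axis), with the list median as a red bar. Filled points are detectable genes and open points are below the threshold on both arrays. The medians of the Ms4a4 and Ms4a6 genes and of the interferon and type 1 lists lie between -2.14 and -1.18, while those of the cell type marker lists lie between -0.45 and 0.18 over all measured genes. Over detectable genes alone, the medians were -0.66 for 4 monocyte and macrophage markers and -0.84 for 2 dendritic cell markers.

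Ms4a genes are also known from B cells and myeloid cells, so markers of these cells were read on the same arrays. All 8 measured B cell markers were detectable and had lower signals in Tc9 cells, with 1 of them, Fcrla, at least 2-fold lower by measured values. Cd79a, which carries the B cell receptor signal, was at log2 signals of 10.65 and 9.68, Blk at 6.90 and 5.95 and Fcrla at 6.80 and 5.52. Smaller differences were those of Ms4a1 (-0.43), Cd79b (-0.42), Cd22 (-0.27), Pax5 (-0.23) and Ebf1 (-0.007). The summed intensity of the list was 4528 for Tc1 and 3187 for Tc9, a ratio of 1.42, with Cd79a alone at 1608 and 821. The median difference was -0.43.

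Of 9 measured monocyte and macrophage markers, 4 were detectable. Mpeg1, the pore-forming perforin-2 of phagocytes, was at least 2.57-fold lower in Tc9 cells, at log2 signals of 7.79 and 5.91. Fcgr3, an Fc receptor, was at 8.41 and 7.54, Fcgr1 at 6.65 and 6.21, and Lyz2, lysozyme, at 8.36 and 8.79. Csf1r, Cd14, Adgre1, Mrc1 and C1qa were below the threshold on both arrays. Of these, Mrc1 (1.497), Adgre1 (0.782), C1qa (0.616) and Csf1r (0.178) had higher measured values in Tc9 cells. Cd14 (-0.545) had a lower one. The summed intensity of the list was 1182 for Tc1 and 994 for Tc9, a ratio of 1.19. The median difference was 0.18 over all 9 but -0.66 over the 4 detectable markers, of which 3 were lower in Tc9 cells. Cd68 was not analysed here.

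Of 7 measured dendritic cell markers, 2 were detectable. They were H2-Aa, which presents antigen in B cells as well, at 11.10 and 10.68, and Zbtb46 at 6.84 and 5.58. The list sums were 2422 and 1855, a ratio of 1.31, with H2-Aa alone at 2199 and 1643. The median difference was -0.84 over the 2 detectable markers but -0.0034 over all 7 measured. Of those below the threshold on both arrays, Itgax (1.06), Xcr1 (0.65) and Flt3 (0.41) had higher measured values in Tc9 cells. Siglech (-0.094) and Clec9a (-0.0034) had lower ones. Of 6 mast cell and basophil markers, Kit alone was detectable, at 6.33 and 6.57, and the sums were 325 and 255, a ratio of 1.28. Below the threshold on both arrays, Cpa3 (-0.98), Fcer1a (-0.79), Hdc (-0.67) and Mcpt8 (-0.22) had lower measured values in Tc9 cells. Ms4a2 (0.084) had a higher one. The median difference over all 6 was -0.45. CD8 T cell markers summed to 26832 and 24314, a ratio of 1.10. No marker was listed at 0. The part of B cells or myeloid cells in the signals of the Ms4a4 and Ms4a6 genes was not tested.

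How far each member's difference moved with the processing was also measured. For Ms4a4b, Ms4a4c and Ms4a6b, 3 of the 6 alternatives could move the difference: quantile normalization, median centring and the pseudocount. Under these, Ms4a4c stayed between -4.26 and -4.08, Ms4a4b between -3.22 and -3.13 and Ms4a6b between -2.02 and -1.91, the deposited values included. The other 3 leave the differences as they are. Each gene has 1 probe set and no signal below the threshold of 6.43, and the threshold from negative controls changes only which signals count as detectable. Ms4a6c ran from -1.02 to -0.47 and Ms4a6d from -1.15 to -0.09, the smallest being those with dim values set at the threshold. Ms4a4d ran from -0.69 to 0.

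**Figure D5:**
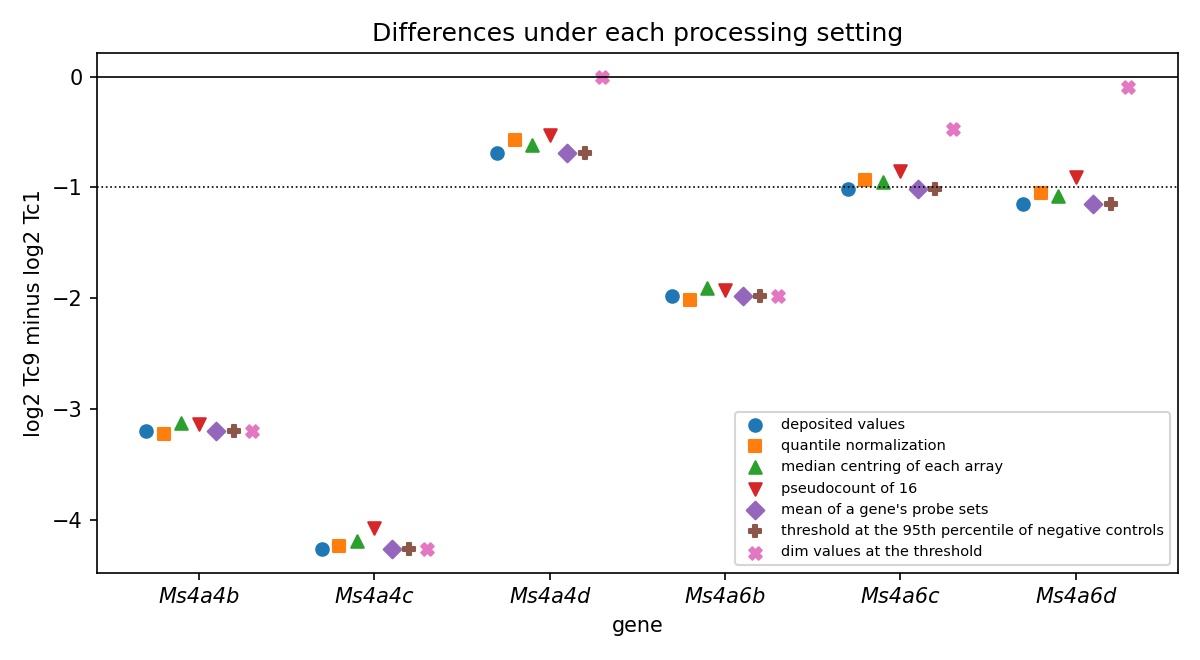
Log2 difference, Tc9 minus Tc1 (vertical axis), of each member (horizontal axis) from the deposited values and under 6 alternative settings, with the 2-fold level as a dotted line. The points of Ms4a4b, Ms4a4c and Ms4a6b cluster tightly below that line, while those of Ms4a6c and Ms4a6d fall on both sides of it.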

How the data were processed

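RNA was extracted with Trizol, labelled with biotin and hybridized to Affymetrix arrays, per the labels' protocols. The deposited table holds the authors' linear probe set intensities for 28846 probe sets. How these were summarized and normalized is not given in the sources used here. The medians, 57.2 for Tc1 and 53.1 for Tc9, lay close together, so the values were used as deposited. The annotation gives 19572 probe sets 1 gene symbol, none several and 9274 none, and the brightest was used for 55 genes with several probe sets. All 19572 Entrez numbers matched RefSeq GRCm38.p6.

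Differences are log2 Tc9 minus log2 Tc1. Where 1 array was below the threshold of 6.43, a fold is written "at least", with the dim value raised to the threshold, and where both were, none is given. Counts past 2-fold and medians use measured values. Levels are not compared between genes, though list sums add intensities across genes. The counting rule was tested on simulated data, with changes planted only in genes whose Tc1 signals lay well above the threshold. That test does not cover genes near the threshold, such as Ms4a6c and Ms4a6d.

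The members and lists were chosen with earlier results of these data known. Named genes were all measured Ms4a genes, Tnfrsf18, the 5 nearest genes for each detectable member (predicted, microRNA and receptor segment genes left out) and up to 4 detectable genes of each list with the largest differences. Gm8369, the flanking genes, Socs1, Ifng, Id2, Ifit2, Ddx58, Cd79b, Cd22, Pax5, Ebf1 and markers below the threshold were chosen after their values were seen. The 6 alternatives were quantile normalization, median centring, a pseudocount of 16, the mean of a gene's probe sets, a threshold at the 95th percentile of negative controls, and dim values at the threshold. RefSeq promoter windows were aligned with Biopython 1.88 (match 1, mismatch -1, gap opening -3, extension -0.5). The array's build is not given in the sources used here, so coordinates belong to these windows alone. The planned comparison of member proteins was not run.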

Additional observations from a re-analysis of the deposited data

How the results depend on the processing

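Ms4a4b, Ms4a4c and Ms4a6b kept their direction and their place past 2-fold under quantile normalization, median centring and the pseudocount. The other 3 alternatives leave their differences as they are by construction. Ms4a6c fell under 2-fold with quantile normalization (-0.93), median centring (-0.95), a pseudocount of 16 (-0.85) and dim values at the threshold (-0.47). Ms4a6d did so with the pseudocount (-0.91) and with dim values at the threshold (-0.091). The count of members at least 2-fold lower was 5 by measured values, 4 under quantile normalization and median centring, and 3 under the pseudocount, the threshold from negative controls and dim values at the threshold. The last 2 of these act by construction on signals near the threshold. A pseudocount also shrinks the differences of dim signals by construction, and median centring moves every difference by the same amount. For quantile normalization the cause was not tested. With dim values at the threshold, the difference of Ms4a4d and the medians of the other Ms4a genes and of the monocyte, dendritic cell and mast cell lists became 0. The median of the type I interferon targets became -0.99 with dim values at the threshold. The median of the dendritic cell markers, near 0, turned to 0.065 after median centring, which shifted all differences by 0.07. No paired analysis was possible because each group has 1 array. Signal over background limits Ms4a4d, Ms4a6c and Ms4a6d, and the Tc9 value of Ms4a4c.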
